A study of Mus musculus with 60 samples.

Results

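The 36 genes described here are genes of the hypoxia response and of glycolysis, measured in mouse liver organoids by 3′-end RNA sequencing. They were listed by name for their known roles, and no measured value enters the rule, but the list was drawn up with earlier results of these data known. All 36 were found among the 31354 genes listed in any of the 3 count tables. The organoids were ductal (cholangiocyte) cultures from livers of C57BL/6N mice aged 3 to 4 months, without a transgene or added agent that separated the groups. In the first comparison, 3 pools of organoids were each grown in Matrigel domes and in suspension, which here means a dilute Matrigel medium on an orbital shaker. In the second, bulk organoids of 3 sets, each from 1 mouse, were sequenced at passage 4 and again at passage 11, with 2 technical replicates that were summed into 1 sample per set and passage. In the third, 42 single organoids were picked from suspension cultures of 4 sets, also 1 mouse each, and the 35 that the study kept after its quality control were compared: Set 1 gave 8 (passage 11), Set 2 gave 10 and Set 3 gave 5 (passage 3 for both), and Set 4 gave 12 (passage 4). All organoids had been started in domes, both culture forms were kept under the same incubator gas, and single organoids with a dark lumen had been avoided when picking.

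Cells sense oxygen through prolyl hydroxylases that mark the subunit HIF1A for destruction while oxygen is present. When oxygen falls, HIF1A persists, enters the nucleus and switches on genes for blood vessel growth, survival, collagen processing and glucose use. Glycolysis splits glucose into pyruvate without oxygen, and lactate dehydrogenase and the lactate exporter carry the end product away. Liver organoids are hollow epithelial cysts whose cells are fed by diffusion from the medium.

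HIF binds DNA at a short core that is found here as ACGTG or GCGTG on either strand, and the stretch before the gene start shows where such letters lie. RefSeq promoter windows matched 32 of the 36 members, with 46 windows, each trimmed to the 250 bases before the annotated start on GRCm38.p6. At least 1 of these cores, counted on both strands and with overlaps allowed, lay in 36 windows (78.3%) of 30 members, against 12679 of 32851 windows (38.6%) over all genes. Both cores contain CG, and the windows were not matched for base composition. Windows of a gene can overlap, as for Aldoa and Eno1, so a site can be counted in more than 1 window. A match is a description of the letters and not evidence of binding. A few promoters are printed because their genes carry the values below: Ankrd37, Bnip3 and Egln3 differed between domes and suspension, Ldha changed in more than 1 comparison, and Gpi1 differed with no such core in its window. They lie at chr8:45999851-46000100 on the minus strand (Ankrd37), chr7:138909507-138909756 on the minus strand (Bnip3), chr12:54203875-54204124 on the minus strand (Egln3), chr7:46845554-46845803 on the plus strand (Ldha, the first of its 2 windows) and chr7:34230337-34230586 on the minus strand (Gpi1). Each is written 5′ to 3′ along the gene's strand, with the cores in capitals.
Ankrd37: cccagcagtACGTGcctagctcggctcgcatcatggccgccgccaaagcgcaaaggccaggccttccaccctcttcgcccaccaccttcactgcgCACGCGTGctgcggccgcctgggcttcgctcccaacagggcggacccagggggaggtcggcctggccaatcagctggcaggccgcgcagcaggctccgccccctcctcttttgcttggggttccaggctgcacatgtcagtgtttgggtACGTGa
Bnip3: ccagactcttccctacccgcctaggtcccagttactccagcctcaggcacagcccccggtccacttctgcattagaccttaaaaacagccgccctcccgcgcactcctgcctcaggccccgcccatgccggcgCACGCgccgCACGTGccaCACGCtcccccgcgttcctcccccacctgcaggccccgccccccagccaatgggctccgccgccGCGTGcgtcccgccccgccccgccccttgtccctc
Egln3: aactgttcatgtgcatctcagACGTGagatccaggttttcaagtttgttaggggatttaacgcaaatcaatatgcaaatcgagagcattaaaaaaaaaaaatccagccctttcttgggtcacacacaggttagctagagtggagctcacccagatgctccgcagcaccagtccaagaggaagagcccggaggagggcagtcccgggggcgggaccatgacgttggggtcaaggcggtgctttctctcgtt
Ldha: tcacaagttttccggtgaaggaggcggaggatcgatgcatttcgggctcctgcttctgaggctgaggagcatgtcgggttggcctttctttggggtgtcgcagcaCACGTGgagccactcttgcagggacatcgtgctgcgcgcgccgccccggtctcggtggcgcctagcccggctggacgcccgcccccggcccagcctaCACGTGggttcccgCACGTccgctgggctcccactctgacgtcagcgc
Gpi1: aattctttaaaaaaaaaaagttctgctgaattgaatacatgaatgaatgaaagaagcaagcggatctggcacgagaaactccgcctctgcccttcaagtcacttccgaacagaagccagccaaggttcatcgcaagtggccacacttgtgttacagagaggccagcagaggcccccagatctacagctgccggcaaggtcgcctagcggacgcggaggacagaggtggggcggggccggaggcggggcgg
The windows of Ankrd37, Bnip3 and Ldha held 4, 5 and 5 matches, that of Egln3 held 1, and that of Gpi1 held 0.

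Totals ran from 1776490 to 14761853 counts in the culture libraries, from 639086 to 3175147 in the passage libraries before summing, and from 1059002 to 11175868 in the kept single organoids. Levels are given as CPM (counts scaled to library size with TMM factors within a table), and differences as log2 fold changes of edgeR's quasi-likelihood fit with their SE; a gene is called where its adjusted p is under 0.05 over all genes tested. Plod2, a lysyl hydroxylase of collagen, had too few counts to be tested in any comparison, which left 35 members tested between culture forms, 34 between passages (without Bnip3) and 34 between sets (without Adm). The ductal keratin Krt19 was abundant in all cultures, at 2618 to 6371 CPM in domes and 956 to 1163 CPM in suspension, while endothelial and mesenchymal markers were at or near 0. In bulk samples, fewer cells that express a gene and less RNA of it per cell cannot be told apart. The mouse, the passage and the set cannot be told apart among the single organoids.

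Hypoxia and glycolysis genes stood higher in dome cultures than in suspension cultures of the same organoid pools. Of the 35 members tested, 21 were called higher in domes by edgeR and 0 lower (also 0 at an unadjusted p under 0.05, and 0 with DESeq2 or limma-voom), where 15% of all 12699 genes tested were called higher and 14.7% lower (29.8% in all). The median log2 fold change of the members was 1.10, with a range of −0.58 to 3.52, beside a median of −0.037 over all genes. By role, 1 of 3 oxygen sensing genes, 8 of 11 signalling and survival targets, 1 of 3 collagen and folding enzymes, 3 of 5 transporters and flux regulators and 8 of 13 glycolytic enzymes were called higher. For 23 members no dome sample overlapped a suspension sample, all higher in domes, where 21.6% of all genes were separated in that direction. Domes were passaged at longer intervals than suspension cultures, so that time since passage and culture form cannot be told apart.

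**Figure D1:**
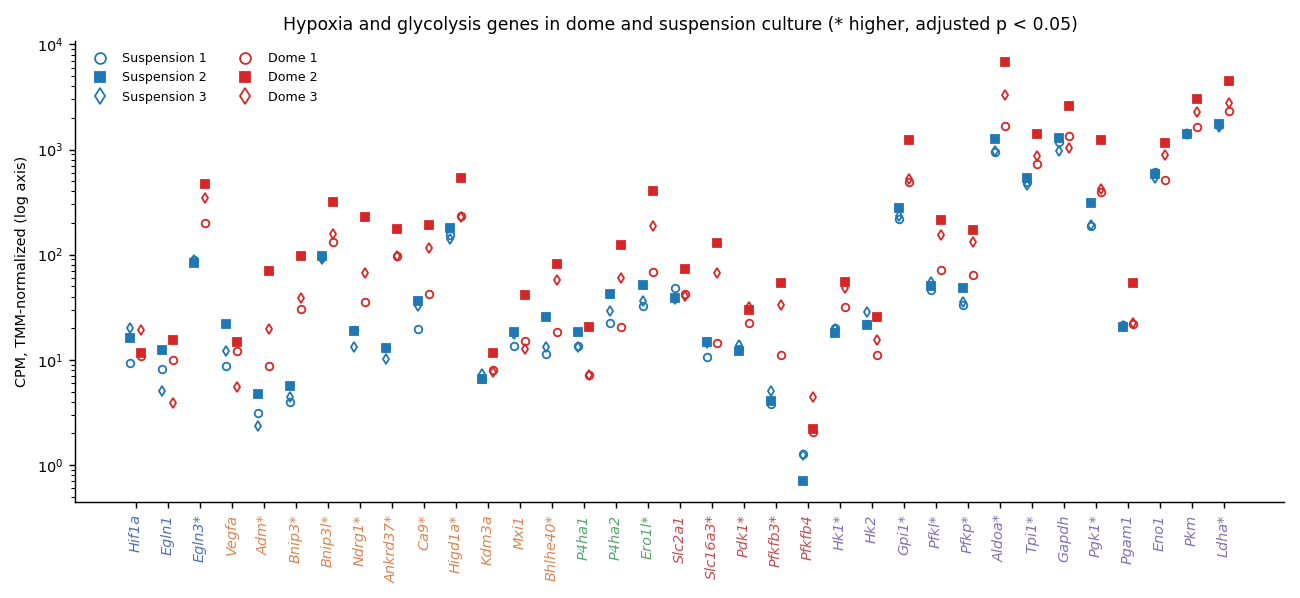
CPM of the members (log axis) in 3 dome and 3 suspension cultures, 1 point per library. Dome points of Bnip3, Ankrd37, Adm and Pfkfb3 lie above all suspension points, while those of Hif1a, Vegfa and Hk2 lie among them.

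Among the oxygen sensors, Egln3, the prolyl hydroxylase that is itself a HIF target, stood at 201, 466.3 and 348 CPM in domes 1 to 3 and at 88.6, 83.7 and 89.5 CPM in suspension cultures 1 to 3. Every dome lay above every suspension culture, with a log2 difference of 1.95 (SE 0.29, adjusted p = 0.00202, edgeR). Hif1a, the oxygen-regulated subunit itself, had a log2 difference of −0.19 (SE 0.34, adjusted p = 0.707), and Egln1, the main oxygen sensor, one of 0.21 (SE 0.45, adjusted p = 0.754). Both groups overlapped for these 2 transcripts.

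The largest differences were in the targets that act in mitophagy and signalling. Bnip3, which marks mitochondria for removal, stood at 30.6, 97.5 and 38.5 CPM in domes and at 4.00, 5.68 and 4.48 CPM in suspension, a log2 difference of 3.52 (SE 0.44, adjusted p = 0.00119, edgeR). Its lowest dome was above its highest suspension culture by a wide margin. Its relative Bnip3l, with the same role, stood at 133, 316 and 156 CPM against 94.5, 97.2 and 90.1 CPM, a log2 difference of 1.09 (SE 0.30, adjusted p = 0.0229). Ankrd37, an ankyrin repeat protein and direct HIF target, stood at 97.3, 176 and 96.8 CPM in domes and at 12.8, 13.01 and 10.3 CPM in suspension, a log2 difference of 3.36 (SE 0.29, adjusted p = 0.000507). Suspension cultures were close to each other for both genes, and the second dome was the highest. Adm, the vasodilator peptide adrenomedullin, stood at 8.83, 69.7 and 19.8 CPM against 3.16, 4.73 and 2.34 CPM, a log2 difference of 3.21 (SE 0.70, adjusted p = 0.00899). Its domes differed among themselves more than those of Ankrd37, and none overlapped suspension.

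Ndrg1, a stress-induced gene of differentiation, stood at 35.9, 227 and 67.6 CPM in domes and at 19.2, 18.9 and 13.2 CPM in suspension, a log2 difference of 2.66 (SE 0.58, adjusted p = 0.00862, edgeR). Ca9, the carbonic anhydrase that handles acid outside the cell, stood at 42.6, 190 and 115 CPM against 19.6, 36.4 and 32.6 CPM, a log2 difference of 1.94 (SE 0.46, adjusted p = 0.0128). The groups did not overlap for either gene, although the first dome was near the suspension range for Ca9. Bhlhe40, a repressor of the circadian clock, stood at 18.5, 82.1 and 57.7 CPM against 11.4, 25.5 and 13.3 CPM, a log2 difference of 1.61 (SE 0.50, adjusted p = 0.0356). Here the first dome lay below the second suspension culture. Higd1a, a small mitochondrial protein, stood at 231, 539 and 227 CPM against 155, 179 and 140.4 CPM, a log2 difference of 1.07 (SE 0.33, adjusted p = 0.0342), without overlap. Vegfa, the vessel growth factor, was not called, with a log2 difference of −0.38 (SE 0.40, adjusted p = 0.499), and neither were Kdm3a, a histone demethylase (0.35), and Mxi1, an antagonist of MYC (0.37).

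Of the collagen and folding enzymes, Ero1l, the oxidase that drives disulfide formation in the endoplasmic reticulum, stood at 68.2, 400.3 and 188 CPM in domes and at 32.6, 52.0 and 36.1 CPM in suspension, a log2 difference of 2.43 (SE 0.52, adjusted p = 0.00839, edgeR). The lowest dome was above the highest suspension culture. The collagen prolyl hydroxylases P4ha1 and P4ha2 were not called, with log2 differences of −0.52 (SE 0.39) and 1.07 (SE 0.52). With the replicate number as a block, taken here as the pool, P4ha2 was called, at a log2 difference of 0.83.

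Of the 5 transporters and flux regulators, 3 were called higher in domes, and the main glucose transporter was not among them. Pfkfb3, which makes the activator of phosphofructokinase, stood at 11.1, 53.5 and 33.5 CPM in domes and at 3.79, 4.02 and 5.10 CPM in suspension, a log2 difference of 2.79 (SE 0.51, adjusted p = 0.00464, edgeR). Slc16a3, the lactate exporter MCT4, stood at 14.5, 128 and 67.1 CPM against 10.7, 14.7 and 14.6 CPM, a log2 difference of 2.32 (SE 0.61, adjusted p = 0.0187). Pfkfb3 was separated between the groups, whereas the first dome of Slc16a3 lay within its suspension range. Pdk1, which keeps pyruvate out of the mitochondrial citrate cycle, stood at 22.5, 30.1 and 31.9 CPM against 12.6, 12.1 and 13.7 CPM, a log2 difference of 1.10 (SE 0.22, adjusted p = 0.00648), without overlap. Slc2a1, the glucose transporter GLUT1, had a log2 difference of 0.30 (SE 0.25, adjusted p = 0.375), and Pfkfb4, a relative of Pfkfb3, one of 1.21 (SE 0.48, adjusted p = 0.0799).

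Along the glycolytic chain, Hk1, the constitutive hexokinase, stood at 32.1, 54.99 and 47.8 CPM in domes and at 20.0, 18.0 and 19.6 CPM in suspension, a log2 difference of 1.20 (SE 0.24, adjusted p = 0.00596, edgeR). Gpi1, the next enzyme, stood at 495, 1223 and 525 CPM against 217, 280 and 233 CPM, a log2 difference of 1.62 (SE 0.34, adjusted p = 0.00803). Both were higher in every dome, and suspension cultures lay within a narrow range. The phosphofructokinases followed, with Pfkp at 64.7, 170.1 and 131 CPM against 33.04, 48.5 and 35.7 CPM, a log2 difference of 1.63 (SE 0.33, adjusted p = 0.00675). Pfkl, the liver form, stood at 71.6, 214 and 155 CPM against 45.7, 50.8 and 54.9 CPM, a log2 difference of 1.52 (SE 0.34, adjusted p = 0.00982). Neither gene overlapped between the groups.

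Aldoa, which splits the hexose, stood at 1667, 6838 and 3297 CPM in domes and at 943, 1262 and 974 CPM in suspension, a log2 difference of 1.89 (SE 0.45, adjusted p = 0.0120, edgeR). Tpi1, which interconverts the triose products, stood at 721, 1396 and 875 CPM against 489.9, 536 and 464 CPM, a log2 difference of 1.00 (SE 0.27, adjusted p = 0.0194). Each dome was above each suspension culture for both genes. Pgk1, the first enzyme that yields ATP, stood at 395, 1238 and 418 CPM against 186, 307 and 191 CPM, a log2 difference of 1.58 (SE 0.43, adjusted p = 0.0217), also without overlap. Ldha, which turns pyruvate into lactate, was the called member with the smallest difference, 0.91 (SE 0.28, adjusted p = 0.0358). The enzymes between Pgk1 and Ldha and the one before were not called: Gapdh (0.54), Pgam1 (0.58), Eno1 (0.57) and Pkm (0.72, adjusted p = 0.0638). Hk2, the inducible hexokinase, had the lowest value of all members, −0.58 (SE 0.31, adjusted p = 0.180). Gapdh, Pgk1, Ldha, Aldoa, Eno1, Pgam1, Tpi1 and Pkm have processed copies or close paralogs in the mouse genome, so part of their reads may have been split or dropped in counting.

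**Figure D2:**
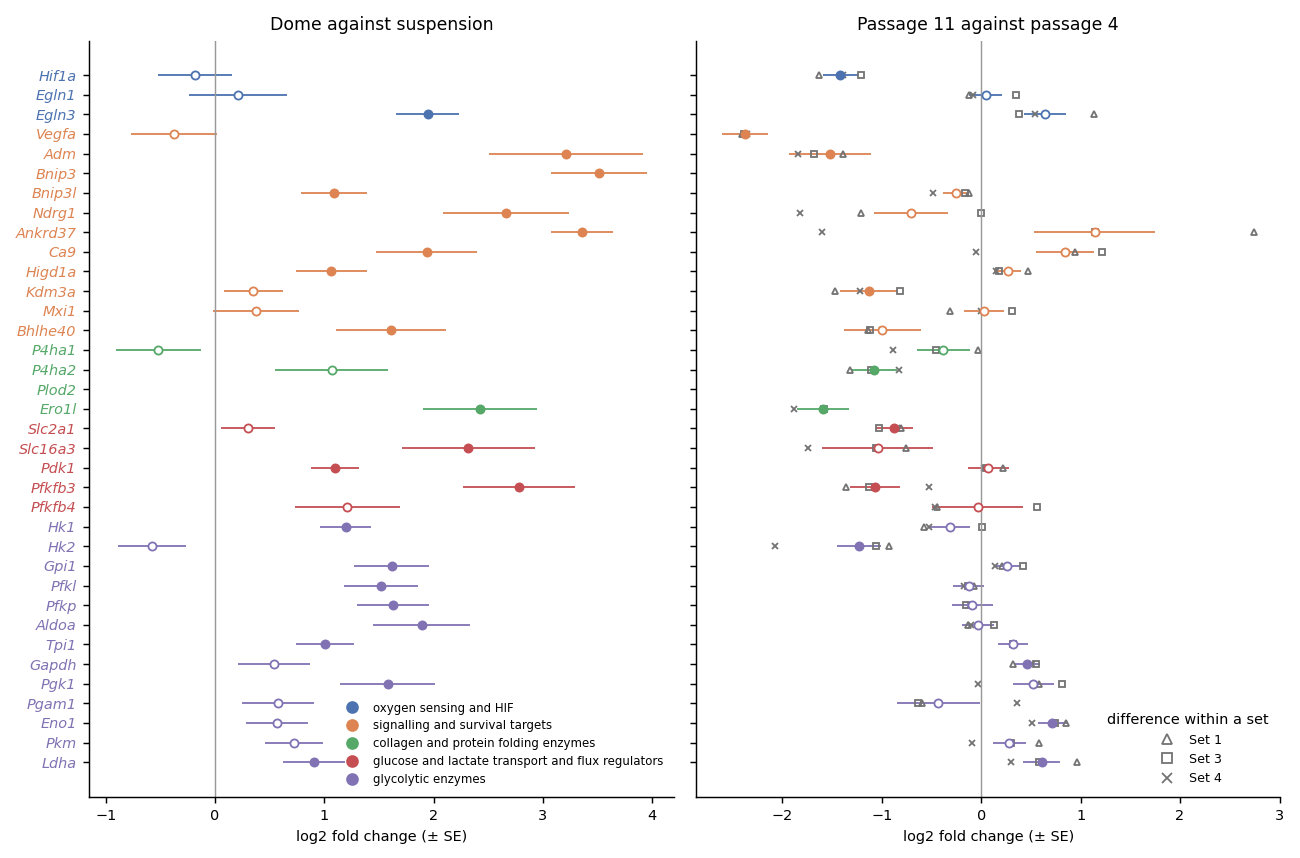
Log2 fold change of each tested member, with its SE, for dome against suspension and for passage 11 against passage 4; filled points were called, and open marks give the difference within each set. Values for domes reach 3.52 at Bnip3, and those for passage run from −2.38 at Vegfa upwards.

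The second dome stood apart within its group. It was the highest dome for 32 of the 35 tested members, and for 20 of the 21 called, where it was the highest dome for 33.8% of all genes tested and for 53% of the genes called higher. Summed over the members, domes 1 to 3 reached 10350, 25510 and 14060 CPM and suspension cultures 7493, 8248 and 7168 CPM, so that the domes spread widely and the suspension cultures did not. The first dome, which also had the most counts of the domes (14761853 against 1885591 and 1776490), was the lowest of the domes for 26 members. Without the second dome, 19 members were called higher and 2 lower, these being P4ha1 (−1.05) and Hk2 (−0.95). Without the first suspension culture 12 members were called higher, and without the third 13.

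Of the 21 calls, 12 held in every alternative fit and with each culture left out in turn: Adm, Ankrd37, Bnip3, Egln3, Ero1l, Gpi1, Hk1, Ndrg1, Pdk1, Pfkfb3, Pfkl and Pfkp. The calls of Aldoa and Pgk1 were lost without suspension culture 1 or 3, and those of Bnip3l, Higd1a, Ldha and Tpi1 without any 1 of the suspension cultures. That of Ca9 was lost without suspension culture 1, that of Slc16a3 without dome 2 or any suspension culture, and that of Bhlhe40 without domes 2 or 3 or suspension cultures 1 or 3. The log2 differences with a culture left out stayed above 0 for all of these 9 genes, and where the call was lost they ran from 0.87 (Ldha without suspension culture 3) to 2.41 (Slc16a3 without suspension culture 3).

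Other features moved with culture form. All 10 proliferation genes were called lower in domes, with sums of 319, 175 and 393 CPM against 889, 752 and 820.1 CPM, and Mki67, the proliferation antigen, had a log2 difference of −2.26 (SE 0.30, adjusted p = 0.00149, edgeR). Mitochondrial transcripts took 1.64 to 2.02% of counts in domes and 3.72 to 4.02% in suspension. The macrophage list summed to 6.93, 93.1 and 29.1 CPM in domes and to 3.37, 9.46 and 6.75 CPM in suspension, mostly from Cd68, a lysosomal gene, with Adgre1 and C1qa at or near 0. The ductal list summed to 4894, 9229 and 6513 CPM in domes and to 5102, 5642 and 5242 CPM in suspension. Of its 8 genes, Krt19 (log2 difference 2.00) and Krt7 (0.81) were called higher and Spp1 (−1.61) lower in domes. The macrophage and ductal sums had their highest values in the second dome, as the members did, and both followed the members' order over the domes. The hepatocyte list summed to 545, 308 and 847 CPM in domes and to 518, 279 and 665 CPM in suspension, with Apoa1 called higher (4.94) and Fah lower (−1.37) of 5 tested. The part of these features in the members' values was not tested.

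Other genes of these pathways were mixed. Of 69 further genes on the list of HIF components, hypoxia-responsive genes, glycolytic isoforms, transporters and gluconeogenic enzymes, 59 were tested. Of these, 16 were called higher in domes and 6 lower, with a median log2 fold change of 0.14. Over all genes tested, 15% were called higher and 14.7% lower. Selenbp1, a selenium-binding protein, was at 894 CPM on average in domes and 88.8 CPM in suspension (log2 difference 3.33, SE 0.39, adjusted p = 0.000972, edgeR). Aldoc, a further aldolase, had a log2 difference of 2.37 (SE 0.37, adjusted p = 0.00237), and Ddit4, an inhibitor of mTORC1 signalling, one of 2.33 (SE 0.40, adjusted p = 0.00352). In the other direction were Tfrc, the transferrin receptor (−1.22, SE 0.30, adjusted p = 0.0135), Angptl4, a lipoprotein lipase inhibitor (−1.04, SE 0.28, adjusted p = 0.0200), and Jmjd6, an oxygenase (−0.90, SE 0.19, adjusted p = 0.00787).

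Between passages 4 and 11 the members moved in both directions, with 9 called lower and 3 higher at passage 11 out of 34 tested. Over all 13738 genes tested, 20.3% were called, 10.1% in each direction. The members' median log2 fold change was −0.11, near that of all genes (−0.047), with 14 positive and 20 negative values. Of the 34, 16 were lower at passage 11 in all 3 sets and 8 were higher in all 3, where 28% and 26.9% of all genes did so. Between the passages 15 members had no overlap, 5 higher and 10 lower, beside 39.5% of all genes (19.2% higher, 20.3% lower). The lower calls were in oxygen sensing (Hif1a), signalling (Vegfa, Adm, Kdm3a), folding and collagen enzymes (Ero1l, P4ha2), uptake and flux (Slc2a1, Pfkfb3) and hexokinase (Hk2), and the 3 higher calls were all in lower glycolysis (Gapdh, Eno1, Ldha). The passages of a set come from the same mouse, so the set was also used as a block.

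Hif1a stood at 33.7, 33.6 and 35.7 CPM at passage 4 in Sets 1, 3 and 4 and at 10.8, 14.5 and 13.4 CPM at passage 11, a log2 difference of −1.42 (SE 0.17, adjusted p = 0.00103, edgeR). Each set fell, and no passage 11 sample came near the passage 4 values. Vegfa, the member with the largest change, stood at 29.0, 24.4 and 21.1 CPM at passage 4 and at 5.39, 4.57 and 3.82 CPM at passage 11, a log2 difference of −2.38 (SE 0.23, adjusted p = 0.000375). Its differences within Sets 1, 3 and 4 were −2.41, −2.39 and −2.36, almost the same in each. Its passage 11 values rested on 24, 23 and 6 counts. The technical replicates there were at 3.89 and 7.19, 6.67 and 2.67, and 5.59 and 1.47 CPM. The closeness of the within-set differences is therefore not a measure of their precision. Kdm3a stood at 10.1, 13.1 and 12.5 CPM at passage 4 and at 3.59, 7.36 and 5.09 CPM at passage 11, a log2 difference of −1.13 (SE 0.29, adjusted p = 0.0221). Adm, close to the detection limit, stood at 5.44, 5.95 and 3.34 CPM and then at 2.02, 1.79 and 0.64 CPM, a log2 difference of −1.52 (SE 0.41, adjusted p = 0.0277). For both genes the passages did not overlap, but in Set 4 at passage 11 Adm rested on 1 count and Kdm3a on 8. The 2 technical replicates of that sample had 847261 and 639086 counts, the fewest of the passage libraries.

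Ero1l stood at 120.0, 122 and 73.7 CPM at passage 4 and at 40.2, 40.6 and 19.7 CPM at passage 11, a log2 difference of −1.59 (SE 0.26, adjusted p = 0.00377, edgeR). P4ha2 stood at 47.2, 51.1 and 29.7 CPM and then at 18.9, 23.7 and 16.5 CPM, a log2 difference of −1.08 (SE 0.23, adjusted p = 0.0103). Set 4 was the lowest of the sets for both genes at either passage. Hk2 stood at 33.4, 41.8 and 41.5 CPM and then at 17.5, 20.1 and 9.54 CPM, a log2 difference of −1.23 (SE 0.22, adjusted p = 0.00549). Pfkfb3 stood at 14, 11.9 and 9.50 CPM and then at 5.39, 5.37 and 6.36 CPM, a log2 difference of −1.07 (SE 0.25, adjusted p = 0.0153). Every set fell for these enzymes, and the passages were separated. In Set 4 at passage 11 Pfkfb3 rested on 10 counts and Hk2 on 15. The fall of Slc2a1 was smaller, with a log2 difference of −0.88 (SE 0.19, adjusted p = 0.0103).

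The 3 members called higher at passage 11, all glycolytic enzymes, were Eno1, Ldha and Gapdh, beside 10.1% of all genes called higher. Egln3, Higd1a, Pdk1, Gpi1 and Tpi1 also rose in all 3 sets but were not called in this fit. Eno1, enolase, had a log2 difference of 0.72 (adjusted p = 0.00774, edgeR), Ldha one of 0.61 (adjusted p = 0.0431) and Gapdh one of 0.46 (adjusted p = 0.0316), all higher in each of the 3 sets. Tpi1 had within-set differences of 0.32 in every set and Pgk1 an overall difference of 0.52, and neither was called. Ankrd37, named after its values were seen, went from 1.296, 7.68 and 4.75 CPM to 9.43, 17.1 and 1.27 CPM. It was higher in Sets 1 and 3 and lower in Set 4 (log2 differences of 2.74, 1.15 and −1.61), on counts of 5, 40 and 27 at passage 4 and 42, 86 and 2 at passage 11. Bnip3, not tested for its low counts, was between 0 and 1.59 CPM.

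**Figure D3:**
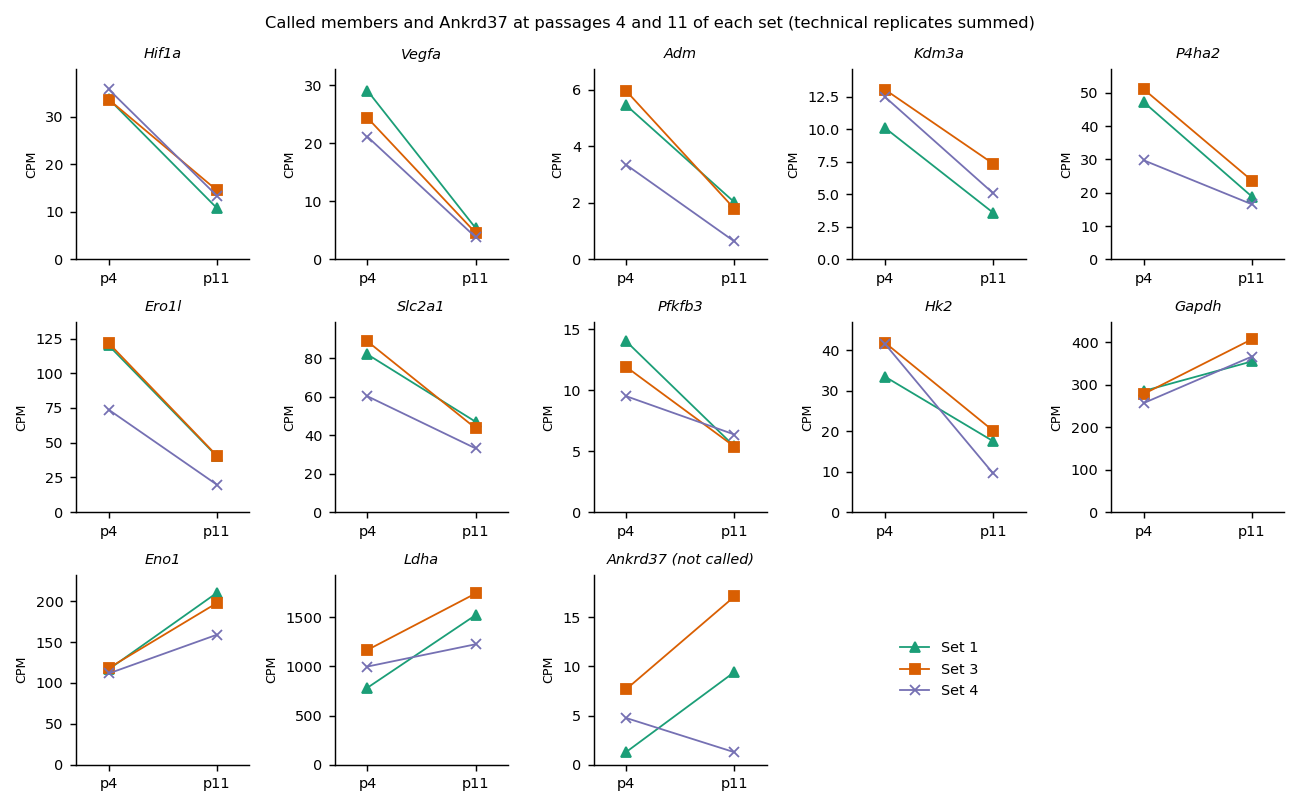
CPM of the 12 called members and of Ankrd37 at both passages, marked p4 and p11, with 1 line per set with the technical replicates summed. Lines of Vegfa, Hif1a and Ero1l fall in each set, those of Eno1 rise in each set, and those of Ankrd37 cross.

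With the set as a block, 5 members were called higher and 12 lower. Those added were Egln3 (log2 difference 0.68) and Ca9 (0.78) among the higher, and Ndrg1 (−0.87), Bhlhe40 (−1.14) and Slc16a3 (−1.12) among the lower. In Set 4 at passage 11 Bhlhe40 rested on 4 counts and Slc16a3 on 6. Hif1a, Vegfa, Ero1l and Hk2 kept their calls in every alternative and with each sample or set left out. Without Set 3, 4 members were called lower and 0 higher, the log2 differences of Eno1, Ldha and Gapdh being 0.70, 0.63 and 0.42. The calls of Slc2a1 (−0.80 without Set 3) and Eno1 were lost with Set 3 left out and in no other fit. Those of P4ha2 were lost without Set 1 (−0.93) or Set 3 (−1.09), those of Kdm3a, Pfkfb3, Adm, Gapdh and Ldha in 4 to 7 of the 9 fits that left out a sample or set. Among these fits were Kdm3a without Set 1 at passage 11 (−0.85), Pfkfb3 without Set 1 (−0.90), Adm without Set 3 at passage 4 (−1.35), Gapdh without Set 3 at passage 11 (0.40) and Ldha without Set 1 at passage 4 (0.46). With technical replicate 1 alone the calls of Gapdh (0.45), Ldha (0.59) and Pfkfb3 (−0.91) were lost, and with technical replicate 2 alone those of Gapdh (0.44), Ldha (0.60), Kdm3a (−0.98) and Adm (−1.14). Thinning ended those of Ldha (0.56), Pfkfb3 (−1.04) and Adm (−1.38), and no filter that of Gapdh (0.46).

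Proliferation genes moved with passage in the direction opposite to most of the called members, with sums of 312, 363 and 360 CPM at passage 4 and 817, 926 and 1125 CPM at passage 11 in Sets 1, 3 and 4, and 8 of the 10 called higher. The hepatocyte list summed to 314 to 738 CPM and then to 800 to 1153 CPM, with 2 of its 5 tested genes called higher, and mitochondrial transcripts took 1.81 to 2.63% and then 0.89 to 1.76% of counts. Their part in the members' values was not tested. Of the further pathway genes, 5 of 56 tested were called higher and 5 lower, near the 10.1% of all genes called in each direction. Pdk3, a pyruvate dehydrogenase kinase (1.299, adjusted p = 0.00950, edgeR), Egln2, a further prolyl hydroxylase (0.70, adjusted p = 0.0258), and Mpc2, a subunit of the mitochondrial pyruvate carrier (0.54, adjusted p = 0.0443), were higher. Lower were Pck2, the mitochondrial form of the gluconeogenic enzyme PEPCK (−1.07, adjusted p = 0.0480), and Klf10, a TGF-beta induced transcription factor (−0.78, adjusted p = 0.00915).

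In single organoids, all 6 pairs of sets were compared in 1 fit, with p-values adjusted over the 6 comparisons together. Organoids of a set share 1 mouse, so these p-values measure spread between organoids within a set, not between mice or passages. Set 1 against Set 2 gave 14 called members of 34 (1 higher, 13 lower in Set 1), against 14.3% of all 13927 genes (7.08% higher, 7.19% lower). Set 1 against Set 3 gave 8 (1 higher, 7 lower; 9.43% of all genes, 4.3% higher and 5.13% lower) and Set 1 against Set 4 gave 11 (5 higher, 6 lower; 20% of all genes, 12.4% higher and 7.6% lower). Sets 4 and 2 differed in 8 members (12.4% of all genes), Sets 4 and 3 in 4 (11.6%) and Sets 2 and 3 in 1 (3.93%). The 3 comparisons with Set 1 share its organoids. Egln1, P4ha2 and Slc2a1 were called lower in Set 1 in all 3 of them, but not under every setting. With all 42 organoids Egln1 was called in none of the 3 (log2 differences of −0.88, −0.75 and −0.77 to Sets 2, 3 and 4), and thinning also ended its call against Set 3 (−0.86). Slc2a1 lost its calls against Sets 2 and 3 with all 42 organoids (−0.47 and −0.49) and with no filter (−0.53 and −0.60). P4ha2 lost its call against Set 4 with all 42 organoids (−0.24), thinning (−0.38), no filter (−0.52) and limma-voom (−0.51).

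Egln1 had its lowest, median and highest organoids at 1.10, 8.73 and 14.8 CPM in Set 1, at 10.4, 18.7 and 24.4 CPM in Set 2 and at 8.90, 16.1 and 19.7 CPM in Set 4. The 5 organoids of Set 3 stood at 15.5, 14.4, 25.5, 12.4 and 14.7 CPM. Set 1 reached the lowest values and overlapped each of the others, with log2 differences of −1.27 (adjusted p = 0.00205, edgeR) to Set 2, −1.15 (adjusted p = 0.0165) to Set 3 and −1.07 (adjusted p = 0.00771) to Set 4. P4ha2 differed by −0.98, −0.88 and −0.53 and Slc2a1 by −0.54, −0.63 and −0.63 in the same order. Egln3 went the other way, with log2 differences of 0.59 to Set 2 (adjusted p = 0.00151) and 0.49 to Set 4 (adjusted p = 0.00615).

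Hif1a ran from 30.3 over a median of 62.8 to 76.6 CPM in Set 1, from 43.1 over 91.4 to 132 CPM in Set 2 and from 24.2 over 38.4 to 53.3 CPM in Set 4. In Set 3 it stood at 71.96, 143, 97.6, 96.5 and 129 CPM. Sets 3 and 4 did not overlap (log2 difference −1.44 in Set 4, adjusted p = 9.93e-06, edgeR), and Set 4 was also lower than Set 2 (−1.16, adjusted p = 2.46e-05). Set 1 lay between them, lower than Set 3 (−0.91, adjusted p = 0.00886) and Set 2 (−0.63, adjusted p = 0.0365). In the order of the medians, Sets 3 and 2 were not called different, and neither were Sets 1 and 4.

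Hk2 ran from 14.5 over a median of 29.0 to 49.4 CPM in Set 1, from 39.8 over 54.3 to 163 CPM in Set 2 and from 25.7 over 36.6 to 65.5 CPM in Set 4, and stood at 73.4, 109, 86.2, 103 and 109 CPM in Set 3. No organoid of Sets 1 or 4 reached the lowest organoid of Set 3, with log2 differences of −1.64 (adjusted p = 6.57e-05, edgeR) and −1.28 (adjusted p = 0.000524). Set 2 was above Set 1 (−1.23 in Set 1, adjusted p = 0.000587) and Set 4 (−0.86 in Set 4, adjusted p = 0.00559). Slc16a3 ran from 0.43 over 1.40 to 3.11 CPM in Set 1 and from 1.97 over 3.66 to 20.3 CPM in Set 2, a log2 difference of −2.07 (adjusted p = 0.000888), and from 0 over 2.88 to 5.80 CPM in Set 4 (−1.11 to Set 2, adjusted p = 0.0336, lost with limma-voom at −0.88). Vegfa ran from 10.7 over 14.6 to 18.1 CPM in Set 1 and from 9.38 over 30.4 to 58.2 CPM in Set 2, a log2 difference of −1.17 (adjusted p = 0.000175). Set 2 spread widely for both genes and reached into the range of Set 1.

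Ndrg1 stood higher in Set 1, from 13.9 over a median of 23.1 to 70.7 CPM, beside 3.34, 10.7 and 18.6 CPM in Set 4. In Set 3 it stood at 10.1, 13.7, 12.5, 7.42 and 15.8 CPM. The log2 difference was 1.71 to Set 4 (adjusted p = 7.09e-05, edgeR) and 1.46 to Set 3 (adjusted p = 0.00915), with some overlap in both. Bhlhe40 was lower in Set 1 than in Set 3 (−1.09, adjusted p = 0.00509) without overlap, 4.52 to 8.54 CPM against 10.5 to 14.4 CPM. Ankrd37 was called between Sets 1 and 2 (−1.98, adjusted p = 0.0179), but its medians were 0.35 and 1.26 CPM and 3 of 8 organoids of Set 1 held no count of it.

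Among the remaining enzymes, Eno1 was lower in Set 1 than in Set 2 (−0.92, adjusted p = 0.000646, edgeR) and Set 4 (−0.81, adjusted p = 0.00187). Gapdh was higher in Set 4 than in Set 1 (−0.56 in Set 1), Set 2 (0.37) and Set 3 (0.48), and its lowest organoid in Set 4 stood at 537 CPM. The Gapdh call against Set 1 held in every fit. That against Set 2 was lost with RLE factors, with no filter and after thinning. That against Set 3 was lost with no filter, after thinning and with all 42 organoids. Ldha was higher in Set 2 than in Set 1 (−0.66 in Set 1) and Set 3 (0.64), the latter being the single member called between Sets 2 and 3. That call was lost without organoid 3, 4 or 6 of Set 3 (log2 differences of 0.60, 0.62 and 0.61). Kdm3a (0.70), Ero1l (0.56) and Bnip3l (0.52) were higher in Set 1 than in Set 4. Thinning ended each of these calls, and those of Ero1l and Bnip3l were also lost with all 42 organoids. Of the 9 members lower at passage 11 in the bulk comparison, Hif1a, Vegfa, Hk2, P4ha2 and Slc2a1 were called lower in the passage 11 organoids of Set 1 than in Sets 2 and 3, while Kdm3a and Ero1l were called higher there than in Set 4. Against Set 4, at passage 4 like the earlier bulk samples, P4ha2 and Slc2a1 were called lower, and Hif1a (0.53, adjusted p = 0.0700, edgeR), Vegfa (−0.39, adjusted p = 0.224) and Hk2 (−0.37, adjusted p = 0.328) were not called. Eno1, Ldha and Gapdh, which rose with passage in bulk, were lower in Set 1 in each comparison with it that called them.

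**Figure D4:**
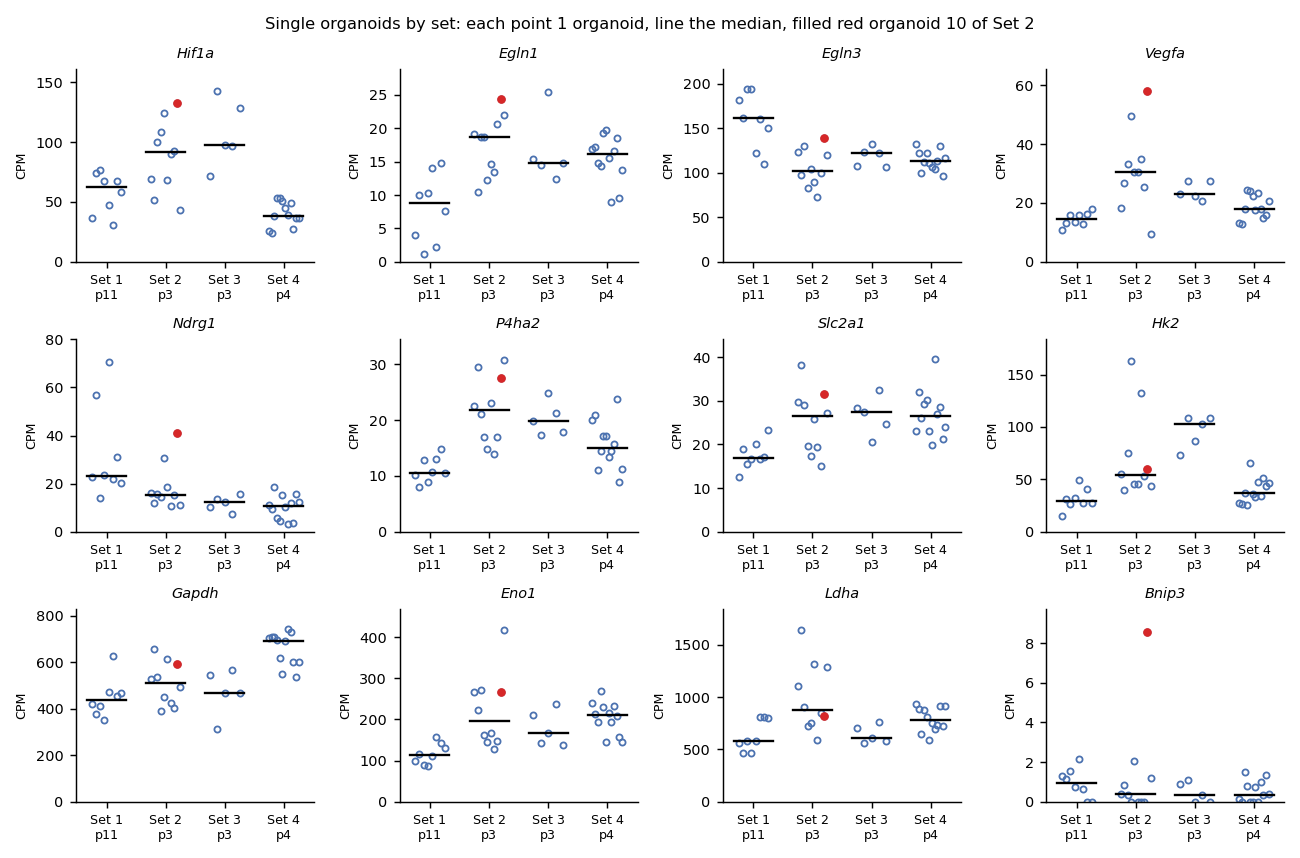
CPM of 12 members in the 35 single organoids of Sets 1 to 4, 1 point per organoid with the median as a line and organoid 10 of Set 2 filled. Organoids of Set 3 lie above those of Set 4 for Hif1a and Hk2, and organoid 10 of Set 2 stands far above the others for Bnip3.

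Organoid 10 of Set 2 had the highest value of its set for 17 of the 34 tested members, where it had the highest value for 8.87% of all genes tested, and a median rank of 9.5 of 10 over the members. Its library was the largest of the set, at 4522826 counts, with 5.07% mitochondrial counts. Organoid 11 of Set 2 had a higher summed CPM of the members (6596 against 5416). It was highest for 8 members (15% of all genes) and lowest of the set for 3, Hif1a, Vegfa and Ero1l. Organoid 5 of Set 3 was highest of its set for 14 members (16.8% of all genes). With organoid 10 of Set 2 left out, a choice made after seeing the data, 11 members were called between Sets 1 and 2, 9 between Sets 1 and 3 and 6 between Sets 4 and 2. Lost were Ankrd37 (−1.51), Hif1a (−0.55), Pgk1 (−0.63) and Pkm (−0.45) between Sets 1 and 2, and Ndrg1 (−0.68) and Slc16a3 (−0.64) between Sets 4 and 2. With a single organoid of Set 3 left out, Egln1 (−0.96 without organoid 4), Slc2a1 (−0.55 without organoid 5) and Vegfa (−0.71 without organoid 3, and also without 1 or 6) lost their calls between Sets 1 and 3. Gapdh (0.36) and Pdk1 (−0.56) lost theirs between Sets 4 and 3 without organoid 3, which left 2 members. The call of Gapdh was also lost without organoid 4 or 6 (0.48 in both), and that of Pdk1 without organoid 5 (−0.73). Those of Pkm between Sets 1 and 2 and of P4ha2 and Tpi1 between Sets 1 and 4 lay so near the threshold that removing an organoid of Set 3 also ended them. The proliferation genes summed to medians of 892, 1205, 1097 and 1221 CPM in Sets 1 to 4, and their part in the members' values was not tested.

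Within a set, members differed widely in how much they varied from organoid to organoid. The biological coefficient of variation, the spread beyond counting error in edgeR's fit, was above the trend for genes of the same level in 16 of the 34 members, where it was above in 38.2% of all genes. Bnip3 exceeded the trend most, by 2.15 times, which placed it at the 99.2 percentile of all genes, followed by Ankrd37 (1.68), Slc16a3 (1.58) and Ndrg1 (1.50). Hk1 was the narrowest, at 0.575 of the trend. Bnip3 was at 8.56 CPM in organoid 10 of Set 2 and no higher than 2.13 CPM in the other 34 organoids. Between-set differences took up 61.0% of the variance of Hif1a in log2 CPM, 58.0% of Hk2, 52.4% of P4ha2 and 51.5% of Gapdh, beside a median of 19.3% over all genes and 1.49% for Pgam1.

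**Figure D5:**
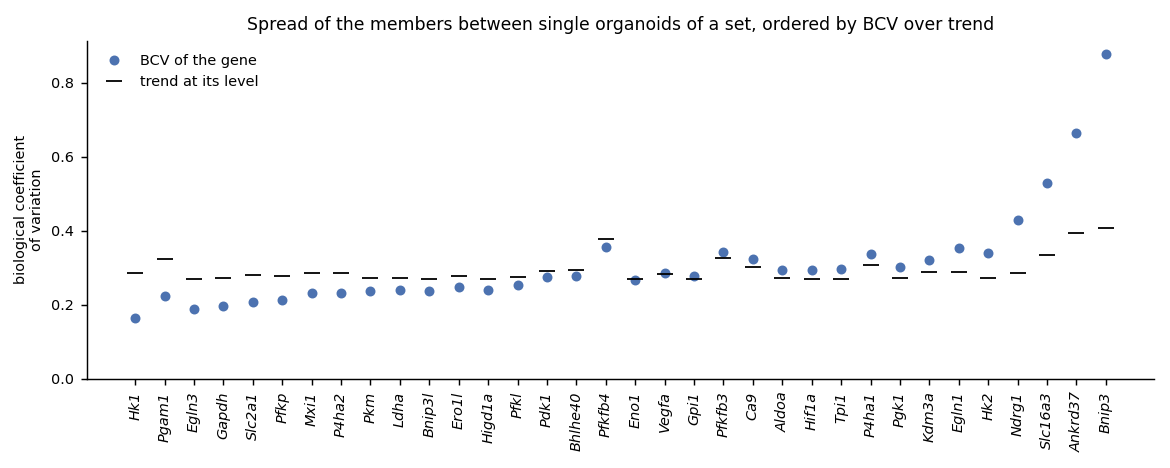
Biological coefficient of variation of each member between single organoids of a set (points) and the trend at its level (bars), ordered by their ratio. Hk1 lies farthest below its trend, and Slc16a3, Ankrd37 and Bnip3 lie farthest above.

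Relations between pairs of members were computed within sets. Over 9 relations (3 gene pairs in Sets 1, 2 and 4), none passed after Benjamini-Hochberg adjustment. Pgk1 and Ldha had Pearson's r = 0.706 over the 10 organoids of Set 2 (permutation p = 0.0242, adjusted 0.135) and Spearman's rho of 0.721 (permutation p = 0.0227, adjusted 0.205), and r was 0.482 without the 2 organoids farthest in Pgk1. In Set 1 their r was 0.327 and in Set 4 0.552. Vegfa and Slc2a1 had r = 0.755 over the 8 organoids of Set 1 (exact permutation p = 0.0300, adjusted 0.135), which dropped to 0.027 without the 2 farthest organoids, and r = −0.114 in Set 2 and 0.282 in Set 4. Pgk1 and Bnip3 had r of 0.252, 0.341 and −0.079 in Sets 1, 2 and 4. Depth is shared by the 2 genes of a pair in each library.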

How the data were processed

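The authors sequenced 3′-end libraries with molecular identifiers and deposited whole-number counts per gene in 3 tables (culture form, passage, single organoids). Per the labels they used zUMIs with STAR and featureCounts on GRCm38 with Ensembl 93, and down-sampled libraries by size; the sources used here do not say if the values are identifiers or reads. The authors also normalised single organoid input by Actb. The 35 kept organoids follow the study's filter; the 7 left out had 666660 to 1152914 counts. Passages of the single sets come from the study's methods. Organoid area was not used here. The members and all gene lists were chosen with earlier results of these data known.

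Counts were tested with edgeR 4.0.16 in R 4.3.3: TMM scaling, filterByExpr with a minimum count of 3, quasi-likelihood F test, two-sided, Benjamini-Hochberg over all genes tested (over all 6 comparisons of sets together), threshold 0.05. The SE was derived from the F statistic. The 2 technical replicates of a passage sample were summed; their members differed by a median of 0.174 (absolute log2). Replicate number was taken to name the pool in the culture comparison, which the sample titles do not state. Same-numbered deviations correlated by 0.13, 0.15 and 0.19. Passage samples pair by mouse (0.098, 0.028 and 0.086). Alternatives were DESeq2 1.42.0, limma-voom (limma 3.58.1), RLE factors, minimum counts of 10 or none, thinning, the replicate block, single technical replicates, all 42 organoids and samples left out. The scripts were tested on simulated data. Values in every sample are given for members called with an absolute log2 fold change of at least 1 (otherwise the 5 largest called); pathway genes are the 3 largest called in each direction whose average log2 CPM reaches 4. Where nothing says that cultures of a pool were separate, p-values measure the spread between these samples, which may be technical. Tables were normalised separately and are not compared. Kept organoids had a median of 2554162 counts, which limits the precision for genes of low level.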

Additional observations from a re-analysis of the deposited data

Results flagged for a closer look

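In single organoids, 102 combinations of a tested member and a set were searched for 1 organoid far from the rest of its set. Sets 1, 2 and 3 were used, with 8, 10 and 5 organoids, and Set 4, with 12, was not looked at. Of the 102 combinations 3 were flagged, no more than the rate of about 1 in 20 groups that chance gives. Pfkfb3, which activates phosphofructokinase, was at 1.42 CPM in organoid 2 of Set 1, whose nearest neighbour was at 4.26 CPM. Pfkfb4, its relative, was at 0 CPM in organoid 7 of Set 1, a library of 1214403 counts in which 1 count equals 0.823 CPM; the next organoid was at 1.10 CPM. Hk1, the constitutive hexokinase, was at 20.9 CPM in organoid 3 of Set 3, and the next at 14.1 CPM.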

How the results depend on the processing

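No called result reversed its direction under the alternatives run. Of the main results followed under the alternatives, 142 values stayed the same and 28 moved. A count of called members stayed the same if it was within 1.5 times the main count. The 142 also include the relations between gene pairs, which were judged by the side of the threshold of their adjusted p. Those that moved were counts of called members, as follows. Members higher in dome were 12 to 24, and lower 0 to 2, with a culture left out. Members higher at passage 11 were 6 with no filter, 5 with the replicate block and 0 to 4 with samples or sets left out, and lower members were 4 to 9. Set 1 against Set 2 gave 9 members with all 42 organoids and 8 with the replicate block. Set 1 against Set 3 gave 5 with all 42. Set 1 against Set 4 gave 7 with all 42 and 6 with the block. Set 2 against Set 3 gave 0 with all 42, with no filter, with the block and with adjustment within the comparison, and 0 to 1 with an organoid of Set 3 left out. Set 4 against Set 2 gave 5 with no filter, 5 after thinning and 2 with the block. Set 4 against Set 3 gave 2 with all 42, with no filter and after thinning, and 2 to 4 with an organoid of Set 3 left out. The organoid number only names an organoid, so a call lost with that block does not speak of a weaker effect. The pool or set as a block changed no calls beyond those given with the results. Over single genes, 1549 values kept their side of the threshold, 171 lost a call and 33 gained one. Between sets only members already called were followed, so a gain could be counted only in the culture and passage comparisons. DESeq2 and limma-voom called 22 and 20 members higher in dome. Slc16a3 and Bhlhe40 lost their dome calls with limma-voom (log2 differences of 1.61 and 1.316), Pkm gained one with both tools (0.73 and 0.72), and Adm lost its passage call with DESeq2 (−1.57). Between sets, limma-voom ended the calls of Pgk1 (−0.54) and Pkm (−0.43) in Set 1 against 2, P4ha2 (−0.51) in 1 against 4, and Pfkp (−0.38) and Slc16a3 (−0.88) in 4 against 2; the cause was not tested. Depth limits Bnip3, Ankrd37 and Adm outside domes and Plod2 throughout.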
